A study of Aspergillus nidulans with 6 samples.

Results

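The genes described here are 30 genes of the filamentous fungus *Aspergillus nidulans* whose RNA was higher after salt in both strains that lack *cnaB*, while in the parent, which carries the gene, it was lower with salt or higher by at most 1.6-fold. They were chosen by a rule on the measured values themselves. A gene had to have a value of at least 2 in all 6 libraries, a salt to control ratio of at least 2.5 in both ΔcnaBΔcchA and ΔcnaB, and a ratio of at most 1.6 in the parent. Of the 10957 genes listed, 7294 had at least 2 in all 6 libraries, and 30 of these, or 0.411%, met the limits on the ratios. High ratios in both deletion strains were mostly shared with the parent. Of the 815 genes (11.2% of the 7294) with a ratio of at least 2.5 in both deletion strains, 708 (86.9%) also had at least 2.5 in the parent, 77 lay between 1.6 and 2.5 there, and the remaining 30 (3.68%) are the genes of this set. Because the rule used every library, its ratios are given as a description, with no test.

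The study asked which genes respond to salt when calcineurin signalling is missing. Its salt groups were ΔcnaBΔcchA (strain LXA05), ΔcnaB (strain WSA08) and the parent (strain TN02A7), each treated with 800 mM NaCl for 30 min after 18 h of growth at 37°C, and its control groups were the same strains without NaCl. LXA05 lacks both *cnaB* and *cchA*, with *pyrG* put in place of each gene. WSA08 lacks *cnaB*, likewise replaced by *pyrG*. The parent TN02A7 has both genes. All strains carry pyrG89, nkuA::argB2 and veA1, and riboB2 and pyroA4 are listed for ΔcnaB and the parent but not for ΔcnaBΔcchA. Since *pyrG* entered with each deletion, its presence and the loss of *cnaB* cannot be told apart in these libraries. The strains of the 2 deletions differ in the markers named as well as in *cchA*. Each genotype was a single strain and each strain and treatment had 1 library, so no difference below has a replicate check. The source is labelled conidia, although the methods describe shaken liquid cultures that were started from conidia. The conidiation regulators *brlA*, *abaA* and *wetA* had at most 4.68 normalized RPM (defined below) and the spore hydrophobin gene *dewA* had no value above 0 in any of the 6 libraries. *rodA*, a further spore hydrophobin gene, had 14.7 in the parent control, no value above 0 in either deletion control, and 1.36 to 2.30 with salt. *yA*, a laccase of conidial pigment, had 227 to 236 with salt and 12.5 to 14.3 without it.

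Calcineurin is a phosphatase that is switched on by calcium bound to calmodulin. It consists of a catalytic subunit and a regulatory subunit, which *cnaB* encodes in this fungus. In fungi, a rise of calcium in the cytosol after salt or other stress activates the phosphatase, which removes phosphate from the zinc finger factor CrzA and lets it enter the nucleus. *cchA* encodes a high-affinity calcium channel of the plasma membrane, and vacuolar calcium pumps lower the cytosolic level again. High osmolarity is sensed in parallel by the HOG pathway, a kinase cascade that ends in the kinase SakA and raises glycerol production.

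All values are normalized RPM, that is, reads per 1000000 reads on genes after a scaling that the authors applied to the 2 libraries of each strain. Between 41369564 and 50006318 reads per library could be recovered from the steps of the values, and 1 read was worth 0.0184 to 0.0264. Values below 1 are listed as 0. *cnaB* (*AN6566*) had a listed value of 0 in the 4 deletion libraries, and 73.6 with salt and 86.2 without it in the parent. *cchA* (*AN1168*, symbol cch1) had 3.96 with salt and 3.56 without it in ΔcnaBΔcchA, 109 and 80.7 in ΔcnaB, and 136 and 74.1 in the parent. The strains were scaled in separate pairs, and over the 7294 genes the median log2 difference from the parent was -0.27 in ΔcnaBΔcchA and -0.26 in ΔcnaB with salt, and -0.29 and -0.30 without it. Differences between strains below are to be read against these medians.

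The salt to control ratio of the 30 genes had its lowest, median and highest values at 2.51, 3.19 and 15.3 in ΔcnaBΔcchA, at 2.55, 3.24 and 10.9 in ΔcnaB, and at 0.546, 1.28 and 1.596 in the parent. The median log2 ratio was 1.67, 1.69 and 0.35 in these strains, beside -0.02, -0.01 and -0.03 over all 7294 genes. Since the limits fixed it, 30 of 30 were at least 2-fold higher with salt in each deletion strain and 0 in the parent, where 17.4%, 18.4% and 19.6% of all genes were at least 2-fold higher in ΔcnaBΔcchA, ΔcnaB and the parent. None of the 30 was at or below 0.5 in any strain, a level that 15.6%, 15.9% and 16.9% of all genes reached. Most of the set lay near its limit. In 17 of the 30 genes the lower of the deletion ratios was under 3, and only *AN10218*, *AN2669*, *AN2639* and *AN10915* had at least 4 in both deletion strains.

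**Figure D1:**
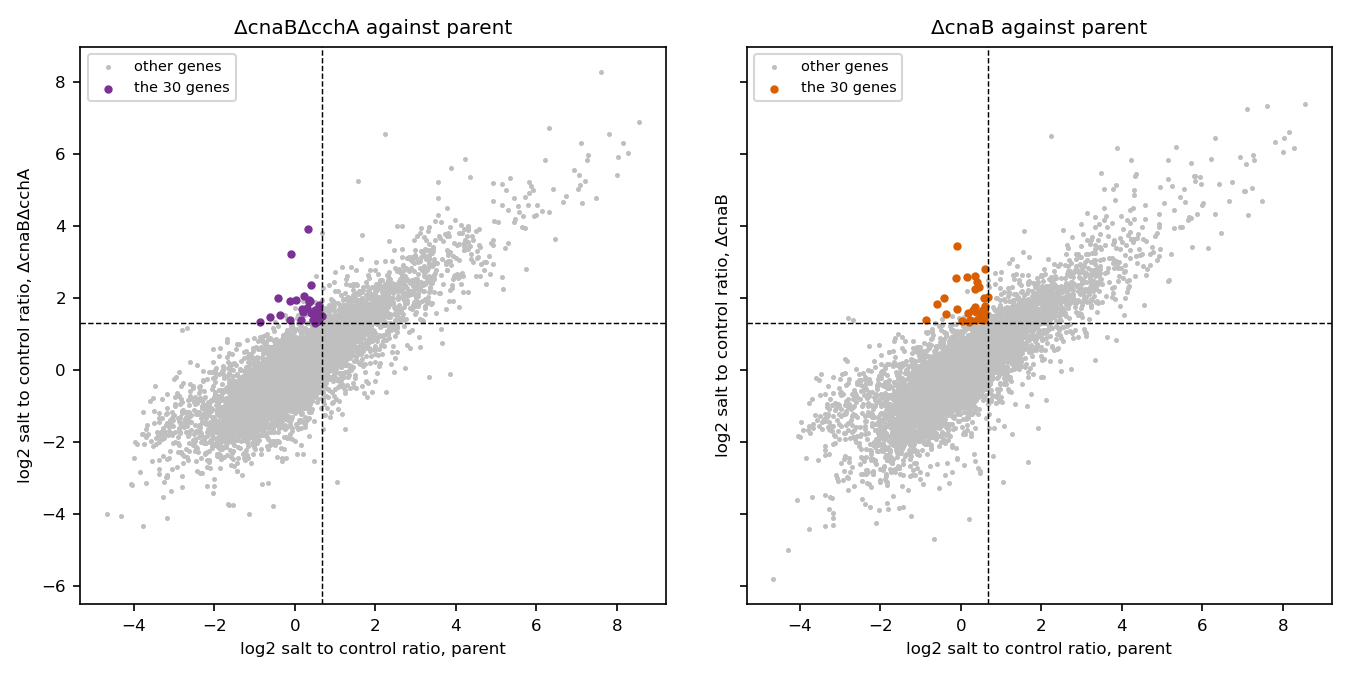
Log2 salt to control ratio of each of the 7294 genes in ΔcnaBΔcchA (left) and ΔcnaB (right) on the vertical axis against the ratio in the parent on the horizontal axis, 1 library per strain and treatment; dashed lines mark ratios of 2.5 and 1.6. The 30 coloured genes stand above the band that most genes form, with parent ratios of 0.546 to 1.596, and grey points in the same corner met the limits in 1 deletion strain only.

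A high ratio can come from a high salt value or from a low control value, and the levels in the 6 libraries show both for each gene. In 24 of the 30 genes, both deletion controls were below the parent control. In the other 6 genes, both deletion controls were above it. The medians of the 24 genes were 30.8 with salt and 8.03 without it in ΔcnaBΔcchA, 40.4 and 12.2 in ΔcnaB, and 30.8 and 24.8 in the parent. As deposited, the medians of the strains were nearer to each other with salt than without it. In single genes, the control value of ΔcnaBΔcchA was 0.113 to 0.958 times the parent control (median 0.375) and that of ΔcnaB 0.222 to 0.891 times (median 0.465). The salt values were 0.328 to 4.83 times the parent salt value in ΔcnaBΔcchA (median 1.15) and 0.537 to 2.95 times in ΔcnaB (median 1.33). As deposited, ΔcnaBΔcchA with salt was within 1.5-fold of the parent with salt in 18 of the 24 genes, and ΔcnaB was in 15 of the 24. The share of all genes within 1.5-fold was not computed, so these counts describe the set only. Over all 7294 genes, 59.4% were lower than the parent in both deletion controls, against 24 of 30 in this set. Measured from the median difference of all genes, 23 of the 30 were lower in each deletion control. *AN6057*, whose controls lay nearly level, is the gene nearest to the boundary.

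**Figure D2:**
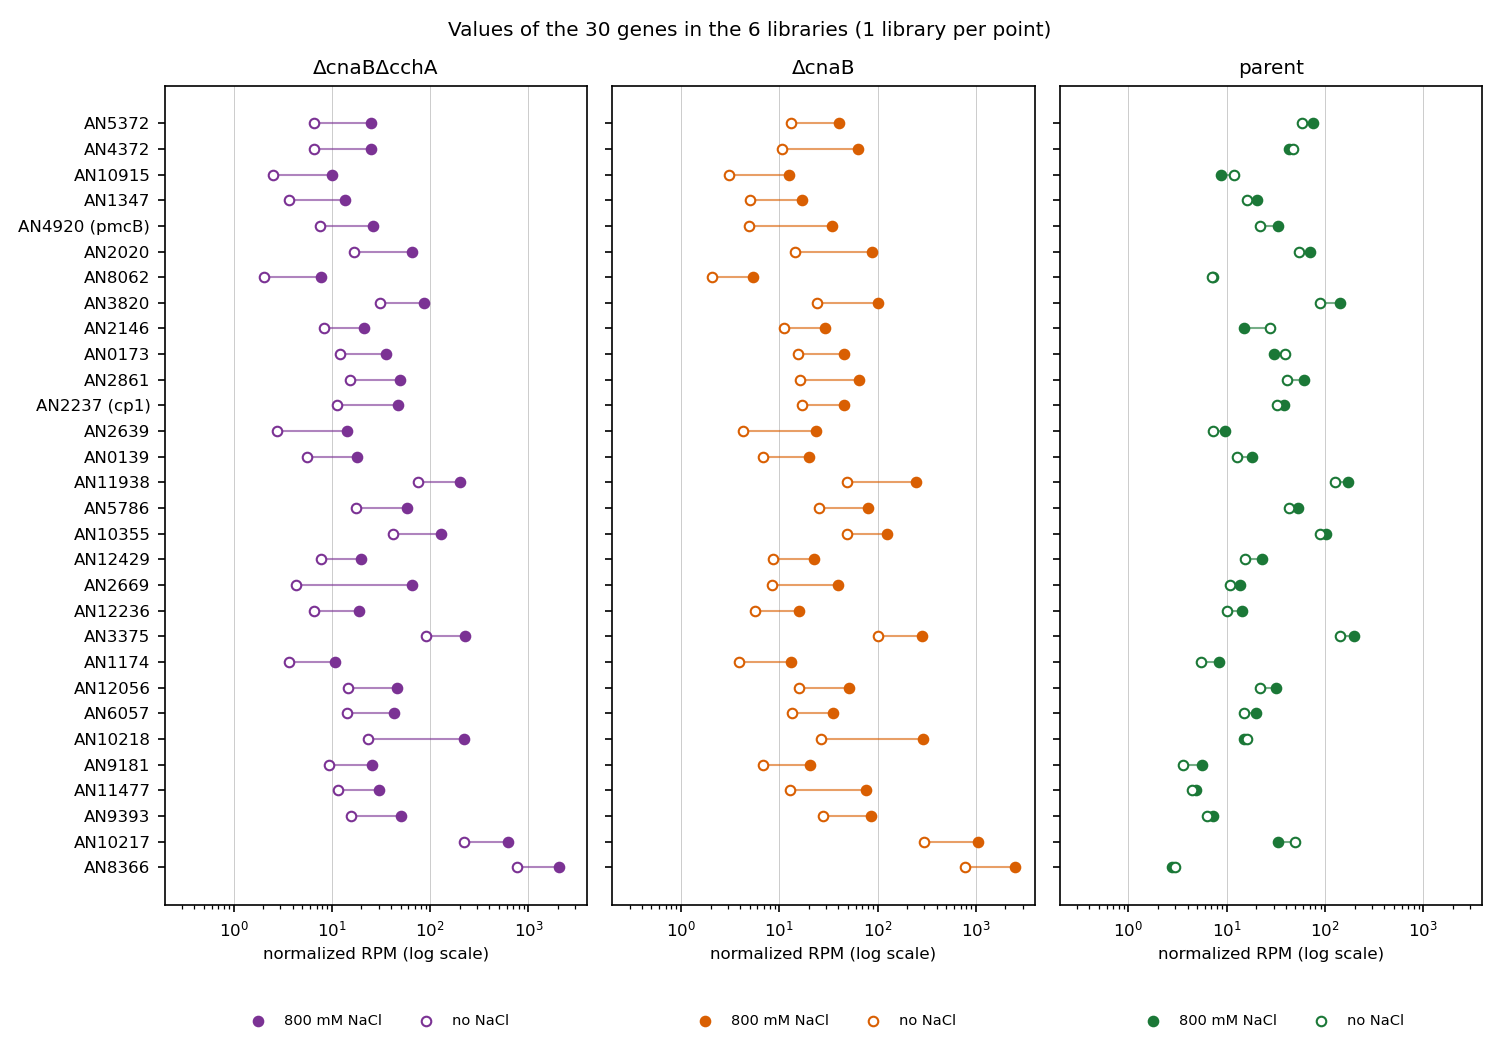
Normalized RPM (log scale) of the 30 genes in ΔcnaBΔcchA, ΔcnaB and the parent, with 800 mM NaCl (filled) and without it (open), 1 library per point; genes are ordered by their difference between deletion and parent controls. In the upper 24 genes the open points of the deletion strains lie left of those of the parent (medians 8.03 and 12.2, against 24.8), and in the lower 6 genes both points of the deletion strains lie to the right of the parent.

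*AN4920* is 1 of only 2 genes of the set with a symbol in the reference. It is *pmcB*, a calcium-pumping ATPase related to Pmc1 of the yeast *Saccharomyces cerevisiae*, which moves calcium into the vacuole. *AN4920* had 26.3 with salt and 7.54 without it in ΔcnaBΔcchA, 34.2 and 4.87 in ΔcnaB, and 33.5 and 21.96 in the parent. All 3 salt values were thus between 26.3 and 34.2, while the deletion controls were far below the parent control. Its ratio was 3.49 in ΔcnaBΔcchA (95% counting interval 3.11 to 3.92), 7.04 in ΔcnaB (6.10 to 8.15) and 1.53 in the parent (1.41 to 1.66), and the upper bound in the parent passes the limit of 1.6. These intervals are exact (Clopper-Pearson) and cover the counting of reads only, not the spread between cultures. The other gene with a symbol is *AN2237* (cp1). *AN2237* was at 46.7 with salt against 11.2 without it in ΔcnaBΔcchA, at 45.1 against 17.0 in ΔcnaB, and at 37.8 against 32.6 in the parent. Its 3 salt values were again close together, and the lowest library was the ΔcnaBΔcchA control.

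Few other genes of calcium signalling could be set beside *pmcB*. Of 19 symbols in a list of calcium and calcineurin genes, 6 were found in the files and 5 had at least 2 in all libraries. Of these 5, *cchA* itself is deleted in ΔcnaBΔcchA. With salt, *pmcB* alone among the 5 was at least 2-fold higher in ΔcnaBΔcchA and in ΔcnaB, as the rule required of it. None was in the parent, and *pmcA* alone was at least 2-fold lower, in the parent. Of all genes, 17.4%, 18.4% and 19.6% were at least 2-fold higher in ΔcnaBΔcchA, ΔcnaB and the parent, so 1 of 5 is near that share. Because the rule fixed the ratios of *pmcB*, this count is a description only. *pmcA* (*AN1189*), a further Pmc1-like pump, had 11.4 with salt and 11.6 without it in ΔcnaBΔcchA, 14.2 and 8.93 in ΔcnaB, and 20.8 and 102 in the parent. It was therefore low in all deletion libraries and high in the parent control only. *crzA* (*AN5726*), the gene of the calcineurin-dependent factor, had 75.3 with salt and 101 without it in ΔcnaBΔcchA, 63.4 and 87.4 in ΔcnaB, and 91.8 and 62.7 in the parent. The reference gives the symbol *midA*, which the study uses for the regulatory subunit of the channel CchA, to *AN4897*. Whether *AN4897* is that subunit was not checked, so its place among the 5 rests on the symbol alone. *AN4897* had ratios of 0.753, 0.920 and 0.859 in ΔcnaBΔcchA, ΔcnaB and the parent, with 369 to 551 in all 6 libraries.

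**Figure D3:**
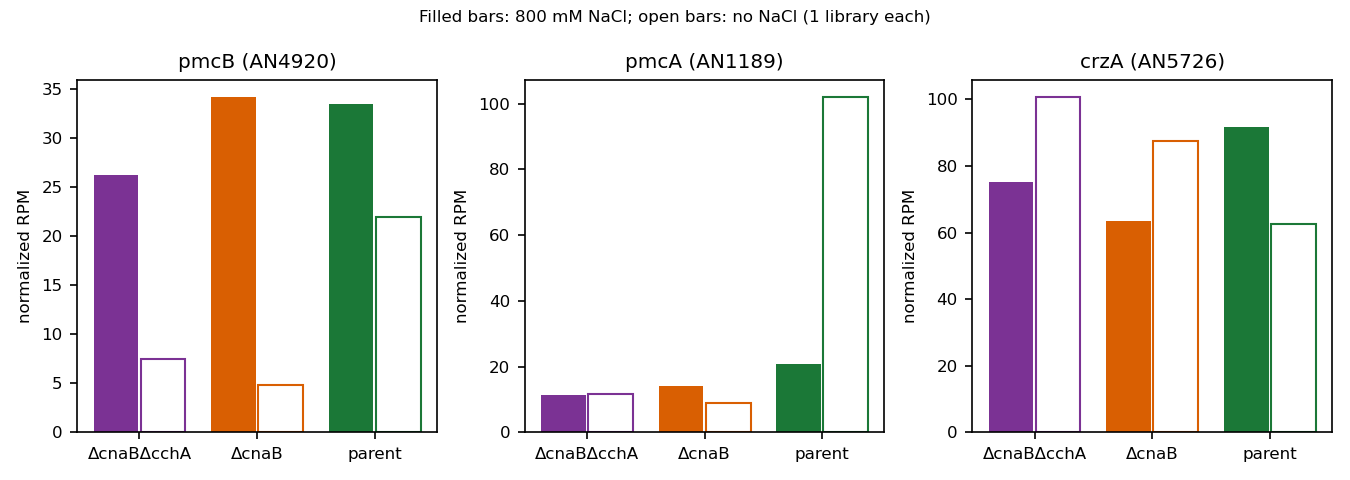
Normalized RPM of *pmcB*, *pmcA* and *crzA* with 800 mM NaCl (filled bars) and without it (open bars) in ΔcnaBΔcchA, ΔcnaB and the parent; each bar is 1 library and each panel has its own axis from 0. *pmcB* has low open bars in the deletion strains only (7.54 and 4.87, against 21.96), and *pmcA* is high in the parent control only (102).

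In 4 of the 24 genes with lower deletion controls, ΔcnaBΔcchA with salt was more than 1.5-fold below the parent with salt, and in 1 of them ΔcnaB was too. The 1.5-fold groups here and below rest on the deposited values, and shares over all genes were not computed for them. Measured from the all-gene medians with salt (-0.27 in ΔcnaBΔcchA, -0.26 in ΔcnaB), some genes would change group, among them *AN1347* and *AN10915*. *AN5372* had 24.9 with salt and 6.56 without it in ΔcnaBΔcchA, 40.8 and 13.2 in ΔcnaB, and 76.0 and 58.1 in the parent. It was lower than the parent under both treatments, and it is the only 1 of the 24 in which no deletion salt value reached the parent control. For *AN3820*, the salt and control values were 87.5 and 30.8 in ΔcnaBΔcchA, 100.5 and 24.5 in ΔcnaB, and 143 and 89.7 in the parent. *AN1347* was at 13.5 with salt against 3.63 without it in ΔcnaBΔcchA, at 17.2 against 5.06 in ΔcnaB, and at 20.5 against 16.1 in the parent. In *AN5372*, *AN3820* and *AN1347* the parent with salt was the highest of the 6 libraries. *AN4372* had 24.97 with salt and 6.54 without it in ΔcnaBΔcchA, 62.7 and 10.7 in ΔcnaB, and 43.4 and 46.9 in the parent. Here ΔcnaBΔcchA stayed below both parent libraries, while ΔcnaB with salt was above both.

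In a larger group, to which *pmcB* and *AN2237* belong, the salt value of each deletion strain was within 1.5-fold of that of the parent, although their controls were lower. *AN2861* had 49.2 with salt and 15.3 without it in ΔcnaBΔcchA, 65.0 and 16.2 in ΔcnaB, and 60.7 and 40.9 in the parent. *AN0139* was at 17.9 with salt against 5.56 without it in ΔcnaBΔcchA, at 19.97 against 6.76 in ΔcnaB, and at 18.2 against 12.8 in the parent. The values of *AN12236* with and without salt were 18.7 and 6.62 in ΔcnaBΔcchA, 16.03 and 5.71 in ΔcnaB, and 14.2 and 10.1 in the parent. The 3 salt values were closer to each other than the deletion controls were to the parent control in each of these genes. For *AN10355*, the salt and control values were 129.7 and 42.2 in ΔcnaBΔcchA, 125 and 49.0 in ΔcnaB, and 102 and 88.4 in the parent. *AN2020* had 65.7 with salt and 17.0 without it in ΔcnaBΔcchA, 87.9 and 14.3 in ΔcnaB, and 70.3 and 54.7 in the parent. *AN3375* was at 229 with salt against 91.3 without it in ΔcnaBΔcchA, at 279.9 against 102 in ΔcnaB, and at 199 against 142 in the parent. The parent ratio was 1.15 in *AN10355*, 1.29 in *AN2020* and 1.41 in *AN3375*. The values of *AN11938* with and without salt were 202 and 76.1 in ΔcnaBΔcchA, 245 and 49.3 in ΔcnaB, and 172 and 126 in the parent. For *AN12429*, the salt and control values were 19.996 and 7.74 in ΔcnaBΔcchA, 22.5 and 8.56 in ΔcnaB, and 22.8 and 15.3 in the parent. *AN8062* had 7.84 with salt and 2.05 without it in ΔcnaBΔcchA, 5.34 and 2.06 in ΔcnaB, and 7.23 and 7.11 in the parent. In *AN12429* the parent with salt was the highest library, by little, and in *AN8062* the ΔcnaBΔcchA control was the lowest single value among the 30 genes, just above the limit of 2. *AN10915*, described below, also belongs to this group. The reference gives no symbol for 28 of the 30 genes, and 4 of them (*AN11938*, *AN12056*, *AN12429* and *AN12236*) have no entry there. Functions of the 28 genes were not looked up.

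In a further 8 genes ΔcnaB with salt stood more than 1.5-fold above the parent with salt, and in 2 of these ΔcnaBΔcchA did too. For *AN2669*, the salt and control values were 65.5 and 4.27 in ΔcnaBΔcchA, 39.96 and 8.43 in ΔcnaB, and 13.6 and 10.7 in the parent. Its ratio of 15.3 in ΔcnaBΔcchA was the highest of the set, against 4.74 in ΔcnaB and 1.26 in the parent. *AN6057* was at 43.0 with salt against 14.4 without it in ΔcnaBΔcchA, at 35.2 against 13.4 in ΔcnaB, and at 19.8 against 15.0 in the parent. The controls of the 3 strains were nearly level in *AN6057*, so that nearly all of the distance lay in the salt libraries. *AN2639* had 14.1 with salt and 2.75 without it in ΔcnaBΔcchA, 23.6 and 4.30 in ΔcnaB, and 9.65 and 7.33 in the parent. *AN5786* was at 58.1 with salt against 17.6 without it in ΔcnaBΔcchA, at 80.5 against 25.1 in ΔcnaB, and at 52.8 against 42.8 in the parent. The values of *AN12056* with and without salt were 45.9 and 14.5 in ΔcnaBΔcchA, 50.6 and 15.8 in ΔcnaB, and 31.6 and 21.8 in the parent. In these 3 genes the salt values of both deletion strains were above that of the parent and both deletion controls were below its control. For *AN1174*, the salt and control values were 10.9 and 3.65 in ΔcnaBΔcchA, 13.3 and 3.89 in ΔcnaB, and 8.32 and 5.46 in the parent. The remaining members of this group, *AN2146* and *AN0173*, had parent values that were lower with salt, and are given below.

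The 6 genes with higher deletion controls had another form. Their salt values were 4.57 to 735 times the parent salt value in ΔcnaBΔcchA (median 10.8) and 3.72 to 916 times in ΔcnaB (median 17.4), and their control values were 1.48 to 257 times and 1.65 to 260 times the parent control. *AN8366* had 2022 with salt and 763 without it in ΔcnaBΔcchA, 2521 and 772 in ΔcnaB, and 2.75 and 2.96 in the parent. The parent values lay near the limit of listing and the deletion values far above it also without salt, so its inclusion rests on a parent ratio of 0.928 with a counting interval of 0.721 to 1.19. Per kilobase of gene span it also had the highest mean value among the 26 genes with an entry, 761, followed by *AN10217* with 342. *AN10217* was at 614 with salt against 219 without it in ΔcnaBΔcchA, at 1047 against 295 in ΔcnaB, and at 32.9 against 50.04 in the parent. For *AN10218*, the salt and control values were 219 and 23.5 in ΔcnaBΔcchA, 286 and 26.3 in ΔcnaB, and 14.9 and 15.9 in the parent. *AN10217* and *AN10218* stand next to each other in the gene order of the reference and are the only members at most 2 genes apart. Within this neighbouring pair the levels without salt differed by strain in unequal measure: *AN10217* was at 4.37 times the parent in ΔcnaBΔcchA and 5.89 times in ΔcnaB, and *AN10218* at 1.48 and 1.65 times.

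The remaining 3 of the 6 genes were also higher in the deletion strains under both treatments. *AN11477* had 29.8 with salt and 11.4 without it in ΔcnaBΔcchA, 76.8 and 12.9 in ΔcnaB, and 4.90 and 4.41 in the parent. Its ratio differed between the deletion strains, 2.61 (2.37 to 2.88) in ΔcnaBΔcchA against 5.97 (5.47 to 6.54) in ΔcnaB. *AN9393* was at 50.2 with salt against 15.5 without it in ΔcnaBΔcchA, at 84.9 against 28.2 in ΔcnaB, and at 7.17 against 6.33 in the parent. The values of *AN9181* with and without salt were 25.3 and 9.43 in ΔcnaBΔcchA, 20.7 and 6.89 in ΔcnaB, and 5.55 and 3.63 in the parent. All 4 deletion libraries were above both parent libraries in *AN11477*, *AN9393* and *AN9181*, as they were in *AN8366*, *AN10217* and *AN10218*.

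Written as a log2 difference between the deletion strains (their mean) and the parent, the distance between the ratios can be split into what the control libraries and the salt libraries each add. For the 24 genes the median distance was 1.41, with medians of 1.17 from the controls and 0.30 from the salt libraries. For the 6 genes it was 1.75, with -1.59 from the controls and 3.68 from the salt libraries. The control part was the larger in 21 of the 30 genes. These parts depend on the scale between strains: measured from the median difference of all genes, an alternative chosen after seeing the data, the medians of the 24 genes were 0.87 from the controls and 0.57 from the salt libraries, and the control part was the larger in 17 of the 30. The lowest of the 6 libraries was a deletion control in 24 genes, 18 times that of ΔcnaBΔcchA and 6 times that of ΔcnaB, and a parent library in the 6 others. The highest was a salt library throughout, that of ΔcnaBΔcchA in 7, that of ΔcnaB in 19 and that of the parent in 4. Shares over all genes were not computed for the lowest and highest library. Of all genes, 59.4% were below the parent in both deletion controls, and the rule set salt above control in both deletion strains. The counts therefore describe the set only. A low control in the deletion strains raises the ratio in those strains by construction, and the comparisons between strains use the libraries that chose the genes.

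Against the parent without salt, the 30 genes had a median log2 difference of -1.24 in ΔcnaBΔcchA and -0.85 in ΔcnaB. In ΔcnaBΔcchA 17 of the 30 were more than 2-fold lower and 5 more than 2-fold higher, where 16% and 9.53% of all genes were. In ΔcnaB 12 were more than 2-fold lower and 4 more than 2-fold higher, beside 10.7% and 7.9% of all genes. With salt the medians were 0.27 and 0.52. In ΔcnaBΔcchA 1 gene, *AN5372*, was then more than 2-fold lower than the parent and 8 were more than 2-fold higher, beside 6.57% and 4.43% of all genes, and in ΔcnaB 0 and 8 were, beside 7.44% and 4.78%. The rule used these same libraries, so the counts describe the set and are no evidence for it.

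**Figure D4:**
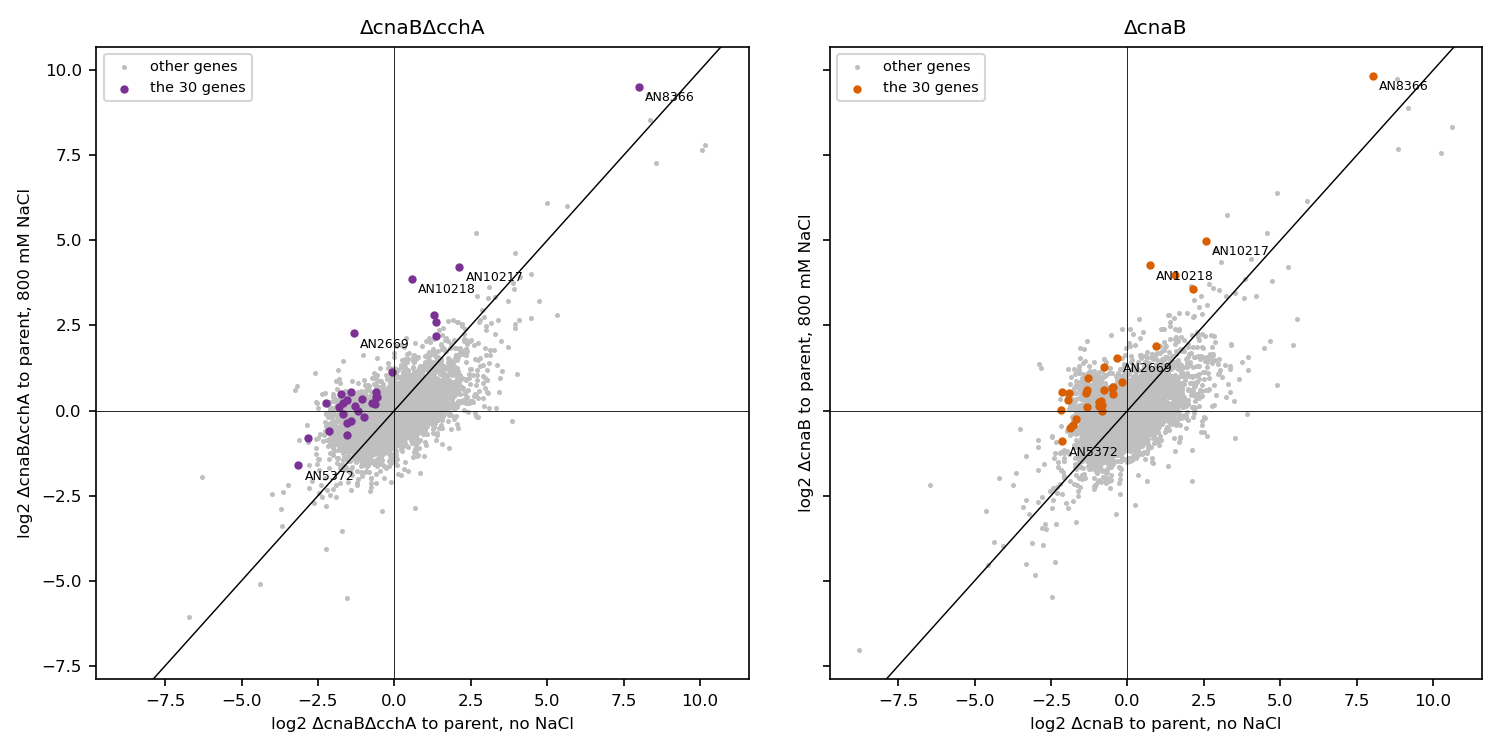
Log2 difference of ΔcnaBΔcchA (left) and ΔcnaB (right) from the parent with 800 mM NaCl (vertical axis) against the same without NaCl (horizontal axis) for the 7294 genes; on the diagonal line the salt ratio of both strains is the same. The 30 coloured genes lie above the diagonal because of the rule, 24 of them left of 0 and 6 right of 0.

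The low ratios in the parent were not all alike. The counting interval was wholly above 1 in 20 of the 30 genes, a small excess with salt in the parent on the deposited scale. With library totals as the scale, *AN10355* and *AN2237* of these fell below 1. The interval included the value 1 in 5 genes and lay wholly below 1 in 5. Shares over all genes were not computed for these interval counts, which describe the set only. The lowest ratio was that of *AN2146*. For *AN2146*, the salt and control values were 21.3 and 8.33 in ΔcnaBΔcchA, 29.4 and 11.3 in ΔcnaB, and 15.1 and 27.7 in the parent. Its ratio was 2.55 (2.27 to 2.87) in ΔcnaBΔcchA and 2.61 (2.35 to 2.90) in ΔcnaB, against 0.546 (0.496 to 0.600) in the parent. *AN10915* had 10.1 with salt and 2.51 without it in ΔcnaBΔcchA, 12.5 and 3.08 in ΔcnaB, and 8.74 and 11.7 in the parent. *AN0173* was at 35.3 with salt against 12.1 without it in ΔcnaBΔcchA, at 45.7 against 15.6 in ΔcnaB, and at 30.0 against 39.0 in the parent. In these 3 genes, and in *AN10217*, the deletion strains were higher and the parent lower with salt, with parent ratios of 0.744 for *AN10915*, 0.769 for *AN0173* and 0.657 for *AN10217*. *AN4372* had a parent ratio of 0.926 (0.870 to 0.985), and its interval no longer stayed below 1 when 50% of the reads were counted, which left 4 such genes. With library totals as the scale, 12 genes had a parent ratio below 1, among them the 7 that had it here.

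ΔcnaBΔcchA and ΔcnaB had ratios that were mostly close to each other. The ratios of ΔcnaBΔcchA and ΔcnaB were within 1.5-fold of each other in 23 of the 30 genes, and that of ΔcnaB was the higher in 18 and the lower in 12. The counting intervals did not overlap in 14 genes, or in 11 with 50% of the reads. Shares over all genes were not computed for these counts, and the rule required high ratios in both deletion strains. The widest distances were those of *AN2669*, with 15.3 (13.4 to 17.6) in ΔcnaBΔcchA against 4.74 (4.24 to 5.31) in ΔcnaB, *AN11477* (above) and *pmcB*, with 3.49 against 7.04. In level, ΔcnaBΔcchA was below ΔcnaB in 23 of the 30 genes with salt and in 23 without it, beside 3912 and 3905 of all 7294 genes. The median log2 differences were -0.31 and -0.17, beside -0.02 and -0.03 over all genes. The whole difference is between single libraries, and whether it exceeds the spread between cultures cannot be told.

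**Figure D5:**
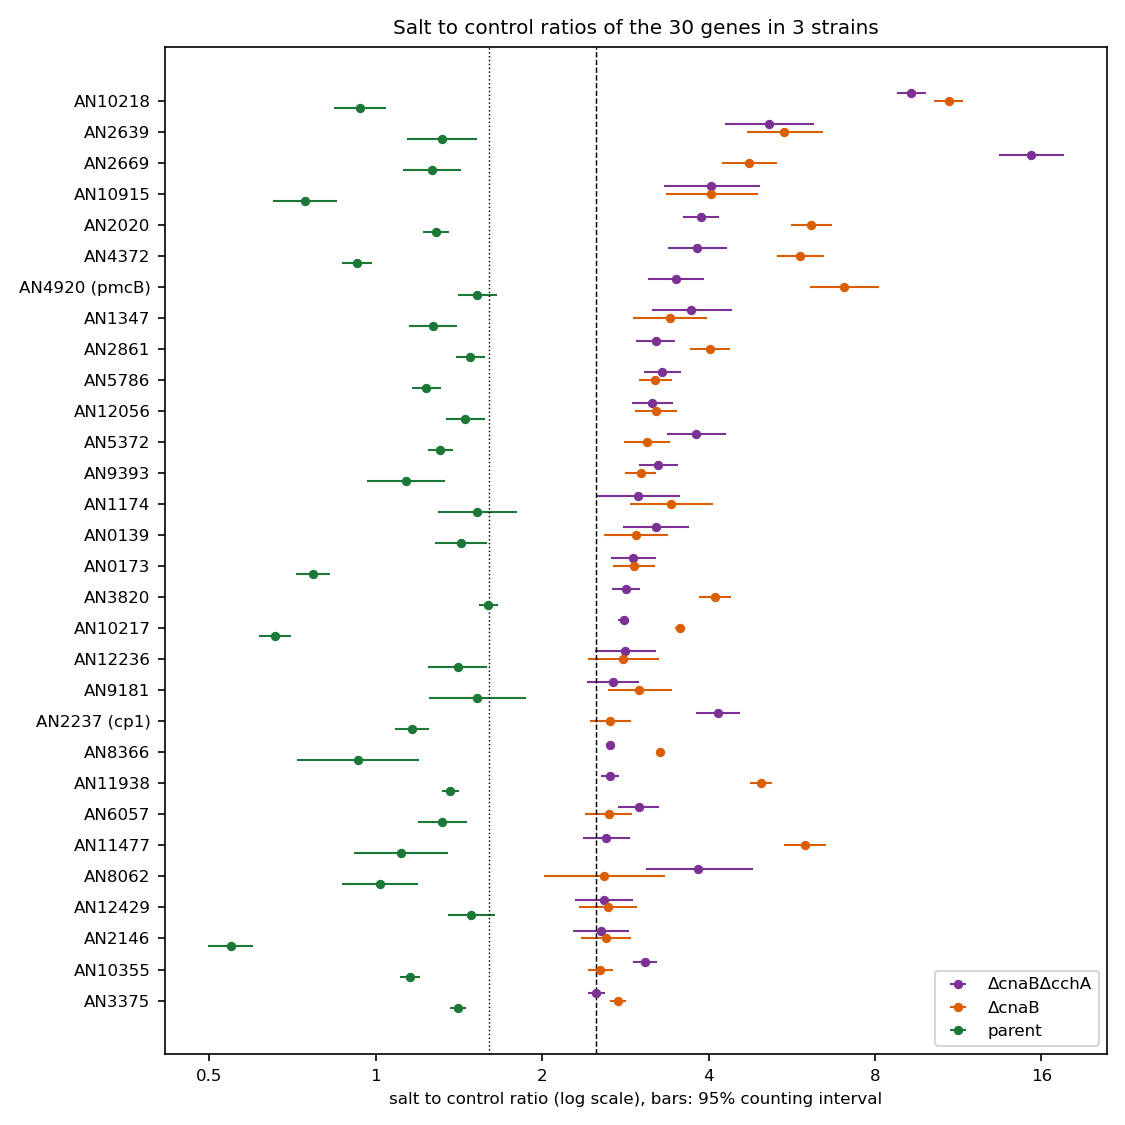
Salt to control ratio (log scale) of the 30 genes in ΔcnaBΔcchA, ΔcnaB and the parent with 95% exact counting intervals as bars; the dashed and dotted lines mark the limits of 2.5 and 1.6. The bars clear both limits in 17 genes, and *AN2669* and *AN11477* show the widest distances between the deletion strains (15.3 against 4.74, and 2.61 against 5.97).

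In 17 of the 30 genes the counting intervals cleared both limits, and in 13 they did with 50% of the reads. *AN3375* (2.51), *AN10355* (2.55) and *AN2146* (2.55) stood just inside the limit of 2.5 by their lower deletion ratio, and *AN12060* (2.48), *AN6729* (2.46) and *AN3452* (2.45) just outside. At the parent limit, *AN3820* (1.596), *AN9181* (1.53) and *AN4920* (1.53) were inside and *AN1505* (1.604), *AN8979* (1.61) and *AN10199* (1.62) outside, of which *AN8979* had ratios of 14.01 in ΔcnaBΔcchA and 5.67 in ΔcnaB. At the limit on the values, *AN8062* (2.05), *AN10915* (2.51) and *AN2639* (2.75) were inside by their lowest library, and *AN2931* (1.91), *AN3808* (1.91) and *AN10147* (1.89) outside. The set also depended on the scale. Scaling every library to the sum of its values, which moves the median log2 ratio of all genes by -0.23 in ΔcnaBΔcchA, -0.31 in ΔcnaB and -0.22 in the parent, left 20 genes that met the rule, and 12 of these belong to the 30. These 12 also met it on the 2 other scales tried, and 7 of them (*AN10218*, *AN10915*, *AN1347*, *AN2020*, *AN2669*, *AN4372* and *AN5786*) cleared the limits with the counting bounds from 50% of the reads as well.

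The controls of the set also differed from those of other response classes. The mean log2 difference of the deletion strains from the parent without salt had a median of -1.03 in the 30 genes, against 0.80 in 62 genes that were high with salt in the parent alone, 1.44 in 51 genes that were low with salt in the deletion strains alone, and -0.30 in all 7294 genes. With salt the medians were 0.37, -0.64, -0.15 and -0.27. The classes were defined on the same libraries, so that the sign of the control difference partly follows from how they were chosen, and no test was made. In the HOG pathway and its targets, 4 genes were at least 2-fold higher with salt in all 3 strains. Of 27 symbols listed, 10 were found and all had at least 2 in all libraries, and with salt 4 were at least 2-fold higher in ΔcnaBΔcchA, 4 in ΔcnaB and 5 in the parent, beside 17.4%, 18.4% and 19.6% of all genes. *gldB*, a glycerol dehydrogenase of glycerol synthesis, had ratios of 7.17 in ΔcnaBΔcchA, 8.03 in ΔcnaB and 9.38 in the parent. *sakA*, the kinase of the pathway, had 5.19, 4.94 and 6.69, *atfA*, its transcription factor, 2.97, 3.13 and 2.95, and *ypdA*, the phosphotransfer protein, 3.35, 3.98 and 3.76. *fphA*, a phytochrome, passed 2-fold in the parent alone, with 1.78, 1.80 and 2.68. *tcsB*, a histidine kinase, was at least 2-fold lower in the deletion strains, with 0.351 and 0.292 against 0.555 in the parent. None of these 10 genes belongs to the set.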

How the data were processed

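RNA of 3 strains was sequenced with and without NaCl, as 6 libraries. Per the methods, the authors filtered out adapter and low-quality reads, aligned the rest to assembly ASM14920v1 (TopHat), obtained gene counts by RSEM and scaled these by TMM. The deposited signal values are TMM-scaled RPM, although their heading calls them read counts. Values below 1 are listed as 0 in the deposited files. Reads were recovered by dividing each value by that of 1 read, which gave whole numbers within 0.1 for 100% of nonzero values. These exceed the raw reads the study gives, so counting intervals are too narrow, and a version from 50% of the reads was added after seeing the data.

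Groups followed the labels. Ratios of the deposited values were taken without a pseudocount among genes with at least 2 in all 6 libraries. With 1 library per group no test was made. Intervals are 95% exact (Clopper-Pearson) intervals. All 30 genes are named. The genes, the limits and both gene lists were chosen with earlier results of these data known. For symbols and gene order the RefSeq table of ASM1142v1 was used, in which 10032 of 10957 identifiers matched; no coordinates are given because the assemblies differ. Promoter and protein sequences were not analysed here. Other scales, filters, constants and limits were tried. The steps were tested on simulated data. Python 3.11.15, pandas 2.3.3, numpy 2.4.6, scipy 1.17.1 and matplotlib 3.10.9 were used.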

Additional observations from a re-analysis of the deposited data

Results flagged for a closer look

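Of the 7 genes with a parent ratio below 1, 4 had a counting interval wholly below 1 in the parent, with all reads and with 50% of them. The log2 ratio in the parent was -0.87 for *AN2146*, -0.61 for *AN10217*, -0.43 for *AN10915* and -0.38 for *AN0173*, while it was at least 1.35 in both deletion strains. The difference between strains was not tested, since each strain and treatment had 1 library and the genes were chosen for such a difference.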

How the results depend on the processing

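No paired analysis was possible because each strain and treatment had 1 library. The number of genes meeting the rule was 30. It was 12 with limits of 3 and 1.5, 74 with limits of 2 and 1.6, 49 where only ΔcnaB had to pass and 55 where only ΔcnaBΔcchA had to, and 17 by the counting bounds (13 with 50% of the reads, added after seeing the data). It was 20 with a least value of 5, 41 with none, 28 with 1 added and 30 with 0.1 added. It was 20 with library totals (12 of them among the 30), 34 with a median of ratios (29 shared) and 32 with a trimmed mean of log ratios (27 shared). With library totals the median log2 salt ratios of the 30 genes were 1.44 in ΔcnaBΔcchA, 1.39 in ΔcnaB and 0.13 in the parent. The median log2 differences from the parent without salt were -0.95 for ΔcnaBΔcchA and -0.58 for ΔcnaB with a median of ratios, and -0.95 and -0.59 with a trimmed mean; with salt they were 0.58 and 0.82, and 0.54 and 0.78. Both of these scales bring the median difference of all genes near 0. Of the 30 genes, 24 were lower than the parent in both deletion controls with library totals, and 23 with each of the other scales. All 300 recomputed deletion values stayed at least 2-fold higher with salt (the lowest log2 ratio was 1.04), and the highest of 150 recomputed parent values was 0.67. The limits that chose the genes, with the small shifts between scales, largely fixed this beforehand. It is therefore no check of the set. The planned share of promoters with a motif was not run. With no second culture, the spread between cultures is unknown; values listed as 0 below 1 limit what can be said of weak genes, such as the parent values of *AN8366*.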

Other observations

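Among genes with at least 2 in all 6 libraries, those outside the set that stand beside the 30 in the gene order had high ratios about as often as all genes. The neighbouring members *AN10217* and *AN10218* are left out of this count. Of 49 genes that are not members and stand directly beside one, 39 had at least 2 in all 6 libraries. Of these, 4 had a ratio of at least 2.5 in both deletion strains, as 815 of all 7294 genes (11.2%) did. All 4 had at least 2.5 in the parent too. The gene beside *AN9181*, *AN9180*, had ratios of 10.7 in ΔcnaBΔcchA, 12.1 in ΔcnaB and 24.4 in the parent, and *AN2236*, beside *AN2237*, had 3.68, 4.74 and 8.54. *AN2639* stands beside *AN2638*, which the study's text calls a hexokinase. *AN2638* had no value above 0 without salt in any strain, and 61.5 in ΔcnaBΔcchA, 117 in ΔcnaB and 21.3 in the parent with salt.

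A filter on low values kept 11 genes out of the set that met its other limits. *AN0528* is among them, with 1504 with salt and 328 without it in ΔcnaBΔcchA, 2282 and 526 in ΔcnaB, and 1.51 and 1.36 in the parent. Like *AN8366*, it was high in all deletion libraries and near the limit of listing in both parent libraries, but it had less than 2 in the parent.

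Over the 6 libraries, the genes outside the set whose log2 values were most like its mean profile were *AN10199* (Pearson r = 0.986), *AN1127* (0.976), *AN12104* (0.975), *AN1963* (0.974) and *AN1505* (0.972). The 30 genes themselves had r of 0.315 to 0.979 with a median of 0.828. These values describe 6 libraries of 3 strains and carry no test. *AN10199* and *AN1505* missed the set by their parent ratios of 1.62 and 1.604, while *AN12104* had ratios of 1.23, 1.34 and 1.09 in ΔcnaBΔcchA, ΔcnaB and the parent.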
